A study of Mus musculus with 5 samples.

Results

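The genes described here are 9 that are tied to motor neuron disease or to the severity of spinal muscular atrophy (SMA): Pls3, Coro1c, Ncald, Zpr1, Uba1, Ighmbp2, Vapb, Sod1 and Tmem41b. They were chosen by name, with earlier results of these data known. Their values were taken from every probe set whose only annotated gene symbol is one of these names. A probe set is a group of short array probes summarised to 1 value per gene region. By this rule 8 of the 9 genes had a probe set, out of 19938 genes with one in all, and Tmem41b had 2, which gave 9 probe sets among 28187 tested. Uba1, which encodes the main ubiquitin-activating enzyme and is mutated in an X-linked form of SMA, is not named by any probe set of the annotation used and was not analysed here.

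SMA is a loss of spinal motor neurons caused by too little survival of motor neuron protein (SMN), which is known for loading Sm proteins onto the small nuclear RNAs of the spliceosome. Several genes are known to change the severity of SMA when their level changes, among them actin regulators and a calcium sensor of endocytosis. Other genes cause motor neuron diseases of their own, such as amyotrophic lateral sclerosis (ALS), and some have been linked to SMN through protein binding or through splicing that depends on it.

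RNA recovered with SMN was measured in NSC-34 cells, a mouse hybrid line of neuroblastoma and embryonic spinal cord cells that serves as a motor neuron-like model. The FLAG-SMN IP group (3 arrays) came from cells with a 3XFLAG-flSMN construct, and the control IP group (2 arrays) came from NSC-34 cells without a FLAG construct, whose precipitate measures what the beads retain without a tagged protein. All cells of both groups were differentiated in 1% serum (3 days in the growth protocol, 48 hours before doxycycline in the treatment protocol), received doxycycline at 3 µg/ml for 3 days, were crosslinked with 400 mJ/cm2 of ultraviolet light and were precipitated with anti-FLAG M2 beads. The labels name neither the promoter of the construct nor whether the line is 1 clone, and they do not state whether the replicates came from different cultures. The p-values therefore cover the spread between these arrays alone, and that spread may be technical. Lysate RNA from before the precipitation was not analysed here. A difference between precipitates thus cannot be told apart from a difference in the RNA level of the cells, and in such bulk material fewer cells with an RNA and less RNA per cell cannot be told apart either.

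The first FLAG-SMN IP array (replicate 1) was the least like its group: its Pearson r across probe sets was 0.964 and 0.968 with replicates 2 and 3, whose own r was 0.989, while the control arrays had r = 0.980. Smn1 had log2 values of 9.89, 9.50 and 9.46 in FLAG-SMN IP and 8.10 and 7.64 in control IP, a log2 difference of 1.74 (95% confidence interval 1.19 to 2.30; limma adjusted p = 0.0877) that missed the adjusted threshold of 0.05. It passed without FLAG-SMN IP replicate 1 (1.61, limma adjusted p = 0.0259). Only the FLAG-SMN cells carried an SMN construct, and whether the Smn1 probe set also reads RNA of the construct was not tested. Of 14 motor neuron markers, 10 lay on every array above the median of the presumed control probe sets, which spanned 4.30 to 4.54 and serves here as the background level. The median of all tested probe sets was itself higher, at 5.25 to 5.39 on the arrays, so lying above background was common among all probe sets. The share of all probe sets above background on every array was not counted. The presumed control median is a rough mark, because the presumed controls include bright probe sets, with 95th percentiles of 9.46 to 9.59. Among the genes described here, only Sod1 lay above that percentile on every array. The choline transporter gene Slc5a7 and the transcription factor gene Mnx1 lay below the presumed control median on all 5 arrays. The choline acetyltransferase gene Chat was within 0.4 log2 units of it, so these markers were at or near background. Lhx3 lay above it on 4 arrays. The other markers of the list lay above it on all 5: Slc18a3, Isl1, Isl2, Lhx4, Prph, Nefl, Nefm, Nefh, Tubb3 and Uchl1. Of 14 markers of glia, microglia and fibroblasts, 5 lay above background on every array, and their mean level spanned 4.57 to 4.63 in FLAG-SMN IP and 4.43 to 4.70 in control IP.

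None of the 8 genes passed the adjusted threshold in FLAG-SMN IP against control IP (0 of 8 in limma, where 0.0319% of all probe sets passed). At an unadjusted p under 0.05 there was 1 of the 8, Tmem41b, lower in FLAG-SMN IP, where 10.4% of all probe sets met that criterion. The groups overlapped for 6 genes. They did not overlap for Vapb, which was higher in FLAG-SMN IP, and for Tmem41b, which was lower, so 2 of 8 genes kept the groups apart where 25.3% of all probe sets did. The median log2 difference of the 8 genes was -0.060, beside 0.018 over all probe sets.

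**Figure D1:**
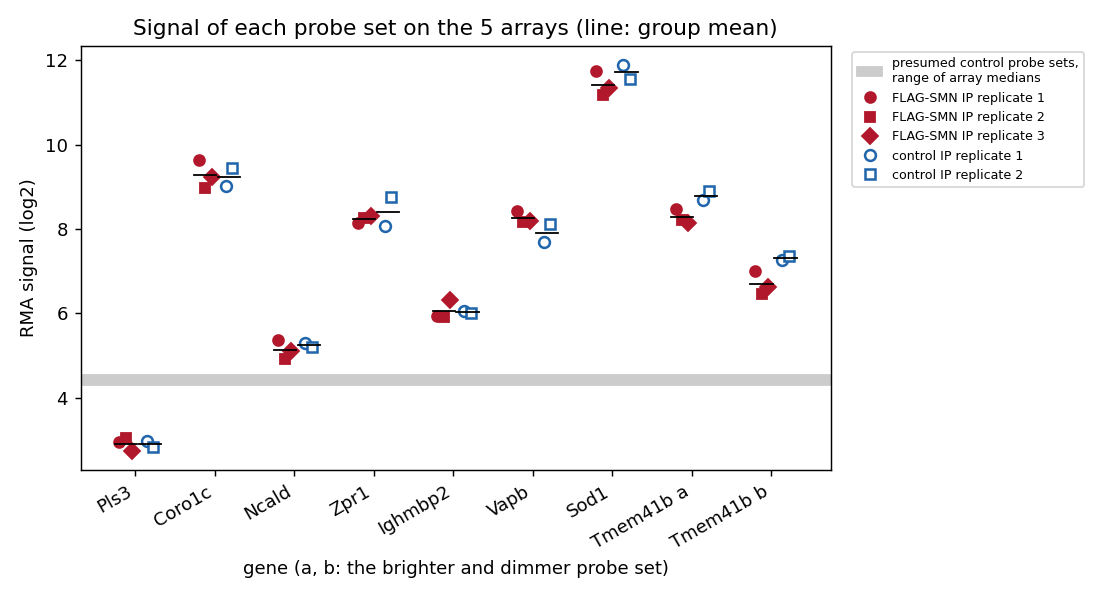
RMA signal on the log2 scale (y axis) of the 9 probe sets (x axis) on 3 FLAG-SMN IP arrays (filled red) and 2 control IP arrays (open blue), with a line at each group mean and a grey band for the array medians of presumed control probe sets. Pls3 lies under the band on every array, and only Vapb and both Tmem41b probe sets have groups that do not overlap.

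Tmem41b encodes an endoplasmic reticulum membrane protein with a role in lipid movement and autophagosome formation. It is also known as Stasimon, a gene with a minor-class intron whose splicing depends on SMN. Its brighter probe set read 8.48, 8.21 and 8.13 in FLAG-SMN IP and 8.69 and 8.89 in control IP. All 3 FLAG-SMN arrays were below both control arrays, by a gap of 0.21 between the nearest pair. The means were 8.28 ± 0.18 (SD, n = 3) and 8.79 ± 0.14 (SD, n = 2), and the log2 difference was -0.52 (95% confidence interval -0.98 to -0.05), which is 1.43-fold lower.

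The dimmer Tmem41b probe set read 7.01, 6.45 and 6.63 in FLAG-SMN IP and 7.27 and 7.35 in control IP, again with every FLAG-SMN array below both controls. Its log2 difference was -0.61 (95% confidence interval -1.13 to -0.09), or 1.53-fold lower. Neither probe set passed after adjustment (limma adjusted p = 0.423 and 0.388). The unadjusted limma p-values were 0.0341 and 0.0270. Both probe sets are annotated to Tmem41b and were read on the same arrays, so they are not independent measurements. Tmem41b lies on chromosome 7. The ID of its dimmer probe set falls between those of Coro1c on chromosome 5 and Zpr1 on chromosome 9. That of the brighter one falls between those of Zpr1 and of Pls3 on chromosome X. Whether both read RNA of the Tmem41b locus itself was not tested. Leaving out single arrays moved the difference of the brighter one between -0.62 and -0.42, and its adjusted p ranged from 0.223 to 0.844 over all the alternatives.

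Vapb encodes an endoplasmic reticulum protein that tethers this membrane to other organelles and is mutated in a dominant form of ALS. Its log2 values were 8.42, 8.16 and 8.19 in FLAG-SMN IP and 7.69 and 8.12 in control IP. The groups did not overlap, but FLAG-SMN IP replicate 2 and control IP replicate 2 were only 0.038 apart, while the control arrays differed from each other by 0.43. The log2 difference was 0.35 (95% confidence interval -0.15 to 0.85; 1.28-fold; limma adjusted p = 0.677). It was 0.14 without control IP replicate 1 and 0.57 without control IP replicate 2, with limma adjusted p = 0.897 and 0.753.

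Of the actin-associated modifiers, Pls3 encodes plastin 3, an actin-bundling protein whose high level is known as protective in SMA. Its log2 values were 2.94, 3.03 and 2.74 in FLAG-SMN IP and 2.97 and 2.82 in control IP. Every array was at least 1 log2 unit below the median of the presumed control probe sets, so Pls3 RNA was not detected above background in either precipitate. No fold is given for it, and its difference of 0.0054 bears on background signal.

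Coro1c encodes coronin 1C, an actin filament-binding protein reported to bind plastin 3. It was well above the presumed control median, at 9.64, 8.97 and 9.24 in FLAG-SMN IP and 9.02 and 9.46 in control IP. The control arrays lay inside the range of the FLAG-SMN arrays. The log2 difference was 0.045 (95% confidence interval -0.57 to 0.66; limma adjusted p = 0.992), and its sign was negative without FLAG-SMN IP replicate 1 (-0.13) or control IP replicate 1 (-0.18).

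Ncald encodes neurocalcin delta, a neuronal calcium sensor that restrains endocytosis, and its reduction is known as protective in SMA. Its values were 5.36, 4.91 and 5.10 in FLAG-SMN IP and 5.29 and 5.21 in control IP. The lowest of them was 0.58 above the presumed control median of its array, so the signal was dim. The control arrays lay within the FLAG-SMN range, and the log2 difference was -0.13 (95% confidence interval -0.60 to 0.35; limma adjusted p = 0.945).

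Zpr1 encodes a zinc finger protein that binds SMN and helps place it in nuclear bodies. It gave 8.14, 8.26 and 8.30 in FLAG-SMN IP, a range of 0.16, and 8.06 and 8.75 in control IP. Here the control arrays differed more than the FLAG-SMN arrays did, and they lay on either side of all 3. The log2 difference was -0.17 (95% confidence interval -0.75 to 0.40; limma adjusted p = 0.930). It was -0.52 without control IP replicate 1 and 0.17 without control IP replicate 2, so its sign depended on which control array was used.

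Ighmbp2 encodes a helicase that is mutated in spinal muscular atrophy with respiratory distress. Its values were 5.93, 5.92 and 6.30 in FLAG-SMN IP and 6.06 and 6.02 in control IP. FLAG-SMN IP replicate 3 was the highest array and the other two were the lowest, with both controls between them. The log2 difference was 0.011 (95% confidence interval -0.46 to 0.49; limma adjusted p = 0.999).

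Sod1 encodes the cytosolic copper and zinc superoxide dismutase, a major gene of familial ALS. It read 11.75, 11.18 and 11.34 in FLAG-SMN IP and 11.89 and 11.56 in control IP. Replicates 2 and 3 of FLAG-SMN IP were below both controls, whereas replicate 1 lay between them. The log2 difference was -0.30 (95% confidence interval -0.86 to 0.26; limma adjusted p = 0.806). Leaving out FLAG-SMN IP replicate 1 made it -0.46 (limma adjusted p = 0.420).

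**Figure D2:**
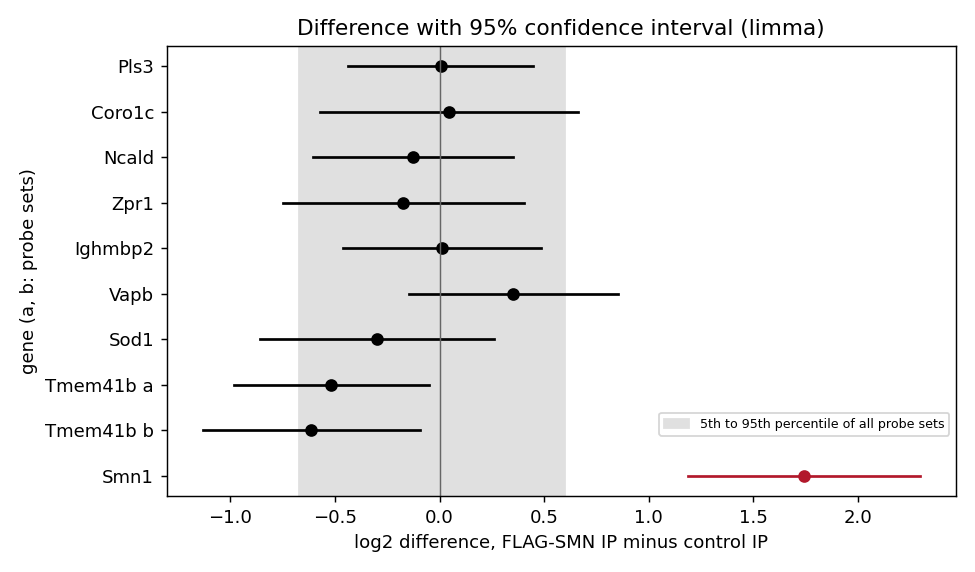
Log2 difference of FLAG-SMN IP minus control IP (x axis) with its 95% confidence interval from limma for the 9 probe sets and Smn1 (y axis), with the 5th to 95th percentile of all probe sets (-0.67 to 0.60) in grey. All 9 points lie inside the grey range, and their upper limits, from -0.09 to 0.85, stay under the lower limit of 1.19 for Smn1. The Smn1 value may include RNA of the SMN construct, which only the FLAG-SMN cells carried.

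The intervals bound the size of difference these arrays allow for, each taken singly and without adjustment for the number of probe sets. That of Pls3 bears on background signal only. The upper limits of the 9 probe sets ran from -0.09 for the dimmer Tmem41b probe set to 0.85 for Vapb, that is, up to 1.81-fold higher in FLAG-SMN IP. The lower limits ran from -1.13 for the dimmer Tmem41b probe set to -0.15 for Vapb. The difference of each of the 9 lay between the 5th and 95th percentiles of all probe sets (-0.67 and 0.60). An adjusted p above the threshold does not show that the precipitates held equal amounts of these RNAs.

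The genes also differed in how they varied within a group. FLAG-SMN IP replicate 1 was above the mean of replicates 2 and 3 for 6 of the 8 genes, by 0.54 for Coro1c, 0.49 for Sod1, 0.35 for Ncald and 0.31 for the brighter Tmem41b probe set. The median of this gap was 0.28 over the 8 genes and 0.025 over all probe sets, where its SD was 0.55. Among the lists used here, its median was 0.26 for motor neuron markers, 0.21 for noradrenergic markers and 0.18 for other ALS genes. It was 0.063 for partners and paralogs, 0.049 for glial, microglial and fibroblast markers and -0.039 for other SMA genes. The gap was -0.15 for Zpr1 and -0.18 for Ighmbp2, the genes for which FLAG-SMN IP replicate 1 was lower. Control IP replicate 1 was below replicate 2 by 0.69 for Zpr1, 0.44 for Coro1c and 0.43 for Vapb, and it was above by 0.33 for Sod1. The control arrays were within 0.09 of each other for Ighmbp2 and Ncald.

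**Figure D3:**
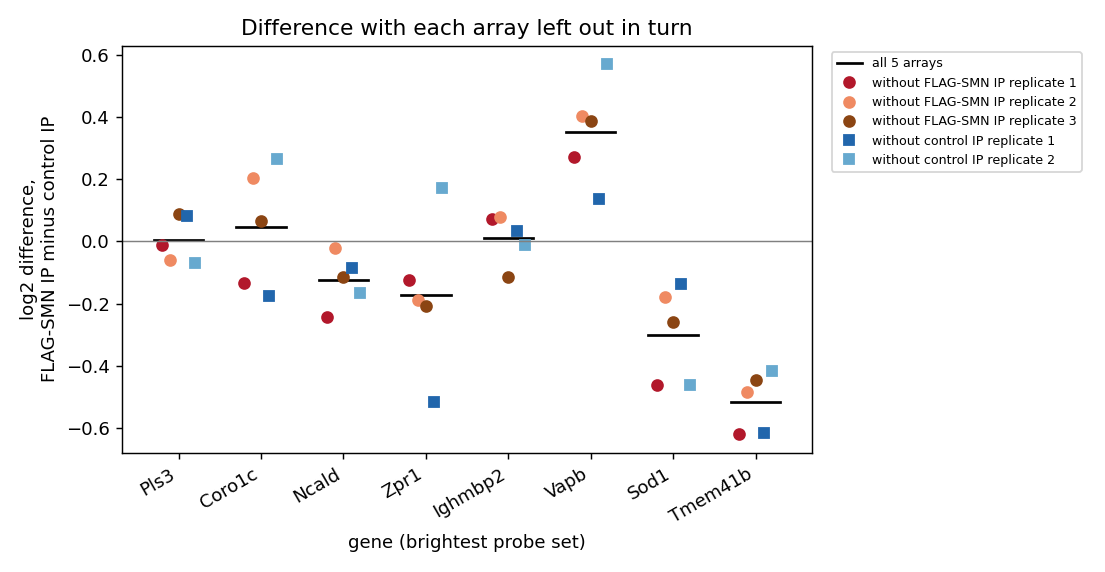
Log2 difference of FLAG-SMN IP minus control IP (y axis) of each gene (x axis) with all 5 arrays (black line) and with each array left out in turn (points). Tmem41b (-0.62 to -0.42), Sod1 (-0.46 to -0.14) and Ncald (-0.24 to -0.021) stayed negative and Vapb (0.14 to 0.57) stayed positive, whereas Pls3, Coro1c, Zpr1 and Ighmbp2 took both signs.

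The 2 genes of largest difference, Tmem41b and Vapb, were set against the profiles of all 19938 genes, each centred on its own mean over the 5 arrays. Nearest to Tmem41b were Akap9, which encodes a scaffold protein of the Golgi and centrosome, Rnf217, a ubiquitin ligase gene, and Sh3gl2, which encodes the endocytic protein endophilin A1. Their root mean square distances were 0.021, 0.038 and 0.045 log2 units, and their own log2 differences were -0.53, -0.50 and -0.46. Nearest to Vapb were Fars2, a mitochondrial aminoacyl-tRNA synthetase gene, Wdr93 and Ankrd6, at distances of 0.034, 0.039 and 0.040 and with differences of 0.35, 0.28 and 0.32. Without control IP replicate 1 those differences were 0.095, 0.084 and 0.10, and without control IP replicate 2 they were 0.61, 0.48 and 0.54. With 5 arrays and this many genes, near matches carry no information on shared function, and none of these 6 passed the adjusted threshold (limma adjusted p from 0.389 to 0.784).

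Partners and paralogs of the 9 genes were then examined as a list, of which 38 of 41 genes were measured. None passed the adjusted threshold in limma. At an unadjusted p under 0.05, 2 were higher and 6 lower, where the shares over all probe sets were 4.14% and 6.31%. The groups did not overlap for 6 genes on the higher side and 11 on the lower side, beside 12.1% and 13.2% of all probe sets. The list's median log2 difference was -0.15, beside 0.018 over all probe sets.

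The gene of smallest p in that list was Sod2, the mitochondrial manganese superoxide dismutase. It read 9.10, 8.90 and 9.07 in FLAG-SMN IP and 9.68 and 9.91 in control IP, a log2 difference of -0.77 (limma adjusted p = 0.223) with the groups 0.58 apart. Sod1 had a difference of -0.30 with overlapping groups, and Ccs, the copper chaperone of Sod1, gave 0.10. Whether Sod1 and Sod2 differ from each other in this respect was not tested.

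Coro1b, a coronin paralog of Coro1c that acts at the leading edge of moving cells, read 9.56, 9.72 and 9.97 in FLAG-SMN IP and 8.72 and 9.13 in control IP. Its log2 difference was 0.83 (limma adjusted p = 0.254), and all 3 FLAG-SMN arrays were above both controls. The wider group of 12 actin bundlers, coronins and profilins ran from -0.83 for the profilin gene Pfn1 to this value, with 4 positive and 8 negative differences. The other plastin genes were low: Pls1 lay between 4.56 and 4.77, just above background, and Lcp1 lay below background on all 5 arrays.

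Uba7, which encodes the activating enzyme of the ubiquitin-like protein Isg15, read 5.90, 6.04 and 6.16 in FLAG-SMN IP and 5.45 and 5.32 in control IP. Its log2 difference was 0.65 (limma adjusted p = 0.267). The 5 measured activating enzyme genes related to Uba1 went both ways, from -0.82 for Uba6, the other enzyme that activates ubiquitin, to Uba7. Mospd1, a gene with the same kind of domain as Vapb, gave 6.36, 6.37 and 6.26 in FLAG-SMN IP and 6.97 and 6.90 in control IP, a log2 difference of -0.61 (limma adjusted p = 0.273). Vapa, the closest paralog of Vapb, gave -0.18 (limma adjusted p = 0.891), a sign opposite to that of Vapb.

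Tmem41a, the nearest paralog of Tmem41b, was singled out after its values were seen. It read 8.16, 8.54 and 8.13 in FLAG-SMN IP and 8.85 and 8.82 in control IP, with every FLAG-SMN array below both controls and a log2 difference of -0.56 (limma adjusted p = 0.399). The other related membrane protein genes did not share this: Vmp1, which acts with Tmem41b in autophagosome formation, gave 0.54 (limma adjusted p = 0.516), and Tmem64 gave 0.0089. The 6 calcium sensor genes related to Ncald ran from -0.41 to 0.37, and the elongation factor genes Eef1a1 and Eef1a2, whose product binds Zpr1, gave 0.021 and 0.028. The helicase genes Upf1 and Mov10, related to Ighmbp2, gave -0.26 and -0.33.

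Of 36 other ALS genes, 28 were measured, and none passed the adjusted threshold in limma. Without adjustment, 1 was higher and 5 were lower at a p under 0.05, beside 4.14% and 6.31% of all probe sets. The profilin gene Pfn1 was counted among the lower genes both here and in the list of partners and paralogs, so these counts are not separate. The groups did not overlap for 3 genes on the higher side and 7 on the lower side, beside 12.1% and 13.2%. The median log2 difference was -0.0022. Chmp2b, an endosomal sorting gene, was the higher one. It read 7.72, 7.72 and 7.87 in FLAG-SMN IP and 6.87 and 6.94 in control IP, with the groups 0.78 apart and a log2 difference of 0.86 (1.82-fold; limma adjusted p = 0.171).

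The neurofilament heavy chain gene Nefh, also among the motor neuron markers, gave 8.30, 7.25 and 7.51 in FLAG-SMN IP and 8.38 and 8.77 in control IP, a log2 difference of -0.89 (limma adjusted p = 0.412). Unc13a, a synaptic vesicle priming gene and a risk gene of ALS, was named after its values were seen. It had 3 probe sets, of which only the brightest is described. Its FLAG-SMN IP values were 7.81 for replicate 1, then 6.10 and 6.30 for the other two, against 8.00 and 8.03 in control IP. Its log2 difference of -1.28 did not pass over all 5 arrays (limma adjusted p = 0.428), but it did without FLAG-SMN IP replicate 1 (-1.82, limma adjusted p = 0.0123). In that setting 350 of the 28187 probe sets passed, so a call there does not set this gene apart. It was the only call in the list of partners, the ALS list or the list of other SMA genes under any alternative run on them.

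Of 35 other genes of SMA and distal motor neuropathy, 32 were measured. None passed the adjusted threshold in limma, while without adjustment 0 were higher and 2 were lower at a p under 0.05, beside 4.14% and 6.31% of all probe sets, so the lower count is near the background. The groups did not overlap for 2 genes on the higher side and 3 on the lower side, beside 12.1% and 13.2%. The median log2 difference was 0.051. The 2 were Bscl2 and Hspb8. Bscl2, which encodes the lipid droplet protein seipin, read 7.85, 8.31 and 8.34 in FLAG-SMN IP and 9.36 and 9.37 in control IP. All FLAG-SMN arrays were at least 1.01 below both controls, and the log2 difference was -1.19 (2.29-fold lower; 95% confidence interval -1.71 to -0.68; limma adjusted p = 0.141). Hspb8, a small heat shock protein gene, gave 9.18, 8.97 and 9.18 against 9.75 and 9.78, a log2 difference of -0.66 (limma adjusted p = 0.254).

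**Figure D4:**
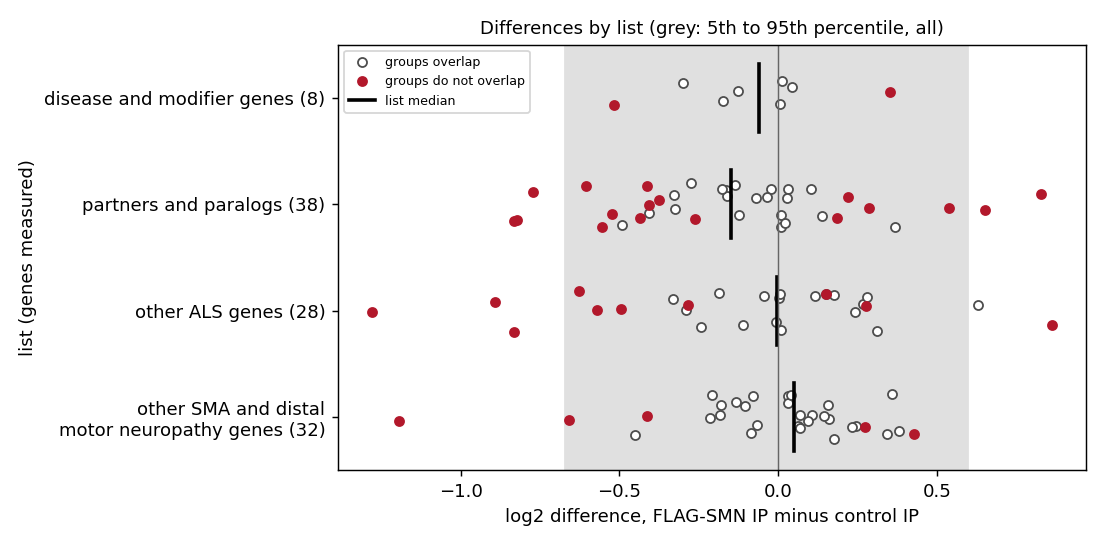
Log2 difference of FLAG-SMN IP minus control IP (x axis) of each measured gene in 4 lists (y axis), filled where the groups do not overlap, with list medians as black bars and the 5th to 95th percentile of all probe sets in grey. The medians (-0.060, -0.15, -0.0022 and 0.051 from top to bottom) lie near 0, and single genes such as Unc13a (-1.28), Bscl2 (-1.19) and Chmp2b (0.86) lie outside the grey range.

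Marker lists gave the setting of these values. Motor neuron markers had a median log2 difference of -0.044. Without adjustment, 0 were higher and 1 was lower at a p under 0.05, near the 4.14% and 6.31% of all probe sets. The genes of smallest p were Nefh and the transcription factor gene Isl1 (-0.72, limma adjusted p = 0.507), which gave -1.08 without control IP replicate 1 and -0.36 without control IP replicate 2. Their mean level was 6.08 to 6.64 in FLAG-SMN IP and 6.43 to 6.45 in control IP. Noradrenergic neuroblastoma markers had a median of -0.45 over 9 measured genes and mean levels of 6.75 to 7.07 in FLAG-SMN IP and 7.62 to 7.82 in control IP. Without adjustment, 2 of the 9 were higher and 4 lower at a p under 0.05, beside the same shares of all probe sets. Those of smallest p were the catecholamine enzyme gene Th (-1.94, limma adjusted p = 0.0957) and the granin gene Chga (-1.88, limma adjusted p = 0.108). The others, named after their values were seen, were Dbh (-2.23) and Chgb (-2.06) on the lower side and Ddc (0.76) and Gata3 (0.50) on the higher side, with limma adjusted p from 0.110 to 0.469. Glial, microglial and fibroblast markers had a median of 0.0064, with Col1a1 at 0.30 and Lum at -0.19 as the genes of smallest p (limma adjusted p = 0.773 and 0.909). Col1a1 gave 0.52 without control IP replicate 1, 0.085 without control IP replicate 2 and 0.20 without FLAG-SMN IP replicate 1, and Lum gave 0.11 and -0.50 without the respective control arrays. The part of these marker differences in the values of Tmem41b and Vapb was not tested.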

How the data were processed

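The authors deposited 1 column of log2 values per array, made with RMA, per the submitters' processing notes. For its version, its settings and the genome build: not given in the sources used here. That the scale is log2 follows from the range of the values, 1.28 to 14.15 with 0 missing. The quantile step of RMA gives the arrays nearly 1 distribution, so a general difference in recovered RNA is not visible. Having few arrays limits the precision.

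Of 34760 probe sets, 6573 with IDs below the lowest annotated one were presumed to be controls and not tested. Genes were named from the platform annotation, using only probe sets with 1 symbol. Where a gene had several, the brightest by mean was used. All 28187 probe sets were fitted with lmFit and eBayes of limma 3.58.1 (R 4.3.3; 2-sided tests, 3 residual and 3.8 prior degrees of freedom), with Benjamini-Hochberg adjustment over all of them. The fit was tested on simulated data. Figures were drawn with matplotlib 3.10.9.

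Named were all 9 genes, Smn1, the 4 partners and paralogs and the 2 genes of each other list with the smallest unadjusted p, and the 3 nearest profiles for the 2 genes of largest difference. Other partners are named to describe a family. The genes and lists were chosen with earlier results of these data known. Alternatives were each array left out, the replicate number as a block, array weights, cyclic loess scaling, moderation with trend and robust options, a fit on all probe sets or on the brighter ones, and the mean of a gene's probe sets.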

Additional observations from a re-analysis of the deposited data

How the results depend on the processing

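None of the 8 measured genes passed the adjusted threshold under any of the 12 alternatives. Of their 94 differences under alternatives, 82 kept their sign and 12 reversed, all at Coro1c, Ighmbp2, Pls3 and Zpr1. Part of the kept signs were fixed in advance. The fits on all probe sets, on the brighter ones and with trend and robust options leave each difference unchanged. The mean of a gene's probe sets could change only Tmem41b. Coro1c was at -0.044 with array weights and from -0.18 to 0.26 with single arrays left out. The replicate block gave the same differences as leaving out FLAG-SMN IP replicate 3, which has no control array of its number. Ighmbp2 was at -0.12 in both, and from -0.12 to 0.079 with single arrays left out. Pls3 was at -0.011 with cyclic loess and -0.039 with array weights, and from -0.071 to 0.088 with single arrays left out. Zpr1 ranged from -0.52 to 0.17 and the fibroblast marker Lum from -0.50 to 0.11 on leaving out single arrays. Pls3 and Ncald lie below the median signal and have no value with brighter probe sets only. The count at an unadjusted p under 0.05, 1 over all arrays (Tmem41b), was 0 with brighter probe sets only, trend and robust moderation or the replicate block, and 0 with any 1 array left out except FLAG-SMN IP replicate 1.

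Over all probe sets 9 passed. The count was 0 with cyclic loess, 0 with all probe sets of the table, 0 with the replicate number as a block and 86 with array weights, and it ranged from 0 to 350 with single arrays left out, the highest without FLAG-SMN IP replicate 1. In the related lists the count ranged from 0 to 1. Without FLAG-SMN IP replicate 1 Smn1, Th and Chga also passed, and Smn1 and Th did with array weights. The cause was not tested. Same-numbered arrays share only a number: their deviations from the group means had r = 0.13 for replicates numbered 1 and -0.20 for those numbered 2. Signal near background limits Pls3 and Ncald.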
